A study of Mus musculus with 9 samples.

Results

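The 10 genes described here encode enzymes that break down the branched-chain amino acids leucine, isoleucine and valine: Bcat2, Bckdha, Bckdhb, Dbt, Ivd, Mccc1, Mccc2, Pcca, Pccb and Hibadh. They were taken by symbol from a liver count table of 24008 genes, all 10 were listed, and all 10 were among the 14379 genes that passed the filter on low counts. The table came from 9 mouse livers, 3 in each of 3 groups, 1 library per mouse, and every mouse had been fed a diet high in fat and carbohydrate that produces nonalcoholic steatohepatitis (the NASH diet). The Flox group, labelled WT for genotype, was the control and carried floxed IRF4 alleles with no deletion. The F4MKO group lacked IRF4, interferon regulatory factor 4, in skeletal muscle, deleted with a muscle Cre line (Myl-Cre). The F4MKO+FSTL1 group carried the same deletion and overexpressed follistatin-like 1 (FSTL1), a secreted muscle protein, from an adeno-associated virus of serotype 8 with the muscle creatine kinase promoter, which had been injected into the gastrocnemius muscle. In the methods the Flox and F4MKO mice received a GFP virus, although the labels name no vector. The diet had lasted 24 weeks in one part of the methods and 12 weeks in another, and livers were taken 4 weeks after the injection. The strain background was C57BL/6J. The summary of the whole study gives male mice of 8 weeks and says elsewhere that both sexes were used, the methods of the F4MKO model name males and females, and the labels give neither age nor sex for these 9 mice. The comparisons ask whether deletion of IRF4 in muscle, and FSTL1 supplied from muscle on top of it, went with different levels of these enzyme mRNAs in liver.

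All 3 branched-chain amino acids share their opening steps. An aminotransferase (Bcat2, the mitochondrial form) removes the amino group, and the branched-chain keto acid dehydrogenase complex of the mitochondrial matrix (Bckdha and Bckdhb, the paired decarboxylase subunits, and Dbt, the transacylase core) then commits the carbon skeleton to oxidation. The paths separate after that step: leucine continues through isovaleryl-CoA dehydrogenase (Ivd) and the biotin enzyme methylcrotonyl-CoA carboxylase (Mccc1 and Mccc2), valine through hydroxyisobutyrate dehydrogenase (Hibadh), and the ends of valine and isoleucine meet at propionyl-CoA carboxylase (Pcca and Pccb), another biotin enzyme. Liver has little aminotransferase activity and a highly active dehydrogenase complex, so it mainly oxidises keto acids delivered by other tissues such as skeletal muscle.

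Depth differed little but was lowest in F4MKO+FSTL1 libraries, at 20656976 to 22891868 counts. Flox libraries had 22900737 to 23896946 and F4MKO libraries 23265774 to 24322984 counts. Total counts per library ranged from 20656976 to 24322984, mitochondrial genes took 5.53% to 7.02% of them, and the 10 enzymes together took 0.112% (F4MKO replicate 1) to 0.157% (F4MKO+FSTL1 replicate 1). F4MKO replicate 1 stood apart with a scaling factor (trimmed mean of M-values, TMM) of 1.17, against 0.927 to 1.03 elsewhere. The factors also separated the groups: 0.927 to 0.955 in F4MKO+FSTL1, 0.969 to 1.02 in Flox and 1.03 to 1.17 in F4MKO libraries. CPM are counts per 1000000 counts of the library after multiplying its size by this factor. In these units F4MKO replicate 1 summed to 85980 CPM over 10 hepatocyte markers, against at least 107526 CPM in the other 8 libraries. Its high factor lowers that sum, which is therefore no separate finding. In F4MKO+FSTL1 replicate 1 the liver count of Irf4 was 10, against 92 to 132 in the other 8 libraries. The deletion and the transgene are both placed in muscle, so liver counts of Irf4 and Fstl1 do not check the labels: Fstl1 had 138 to 186 counts in Flox, 234 to 456 in F4MKO and 67 to 114 in F4MKO+FSTL1 libraries. The paper found liver Fstl1 mRNA unchanged after injection of the FSTL1 virus. The 10 hepatocyte markers were all detected in every group, and the 5 skeletal muscle markers in the table summed to at most 1.62 CPM in any library.

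Per length, the mRNAs of the pathway covered a wide range. In Flox livers, with counts divided by the longest coding transcript of each gene (GENCODE vM21), Hibadh stood highest at 191 ± 5.48 CPM per kilobase (SD, n = 3), followed by Bckdha at 145 ± 4.85 and Pccb at 82.9 ± 3.19 CPM per kilobase. Bckdhb (49.8 ± 1.22) and Ivd (45.4 ± 4.22) came next and differed by less than their summed SDs, as did Pcca (30.4 ± 2.62) and Mccc2 (26.4 ± 1.67 CPM per kilobase) after them. Mccc1 (19.4 ± 1.60), Dbt (17.9 ± 1.39) and Bcat2 (17.1 ± 1.52 CPM per kilobase) closed the order and did not differ beyond their spread. This order depends on the length used, since the deposited counts name no annotation: dividing by all annotated exons, retained introns included, left Hibadh at 34.3 and Mccc1 at 4.36 CPM per kilobase. Bcat1, the cytosolic aminotransferase, was too low to test.

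**Figure D1:**
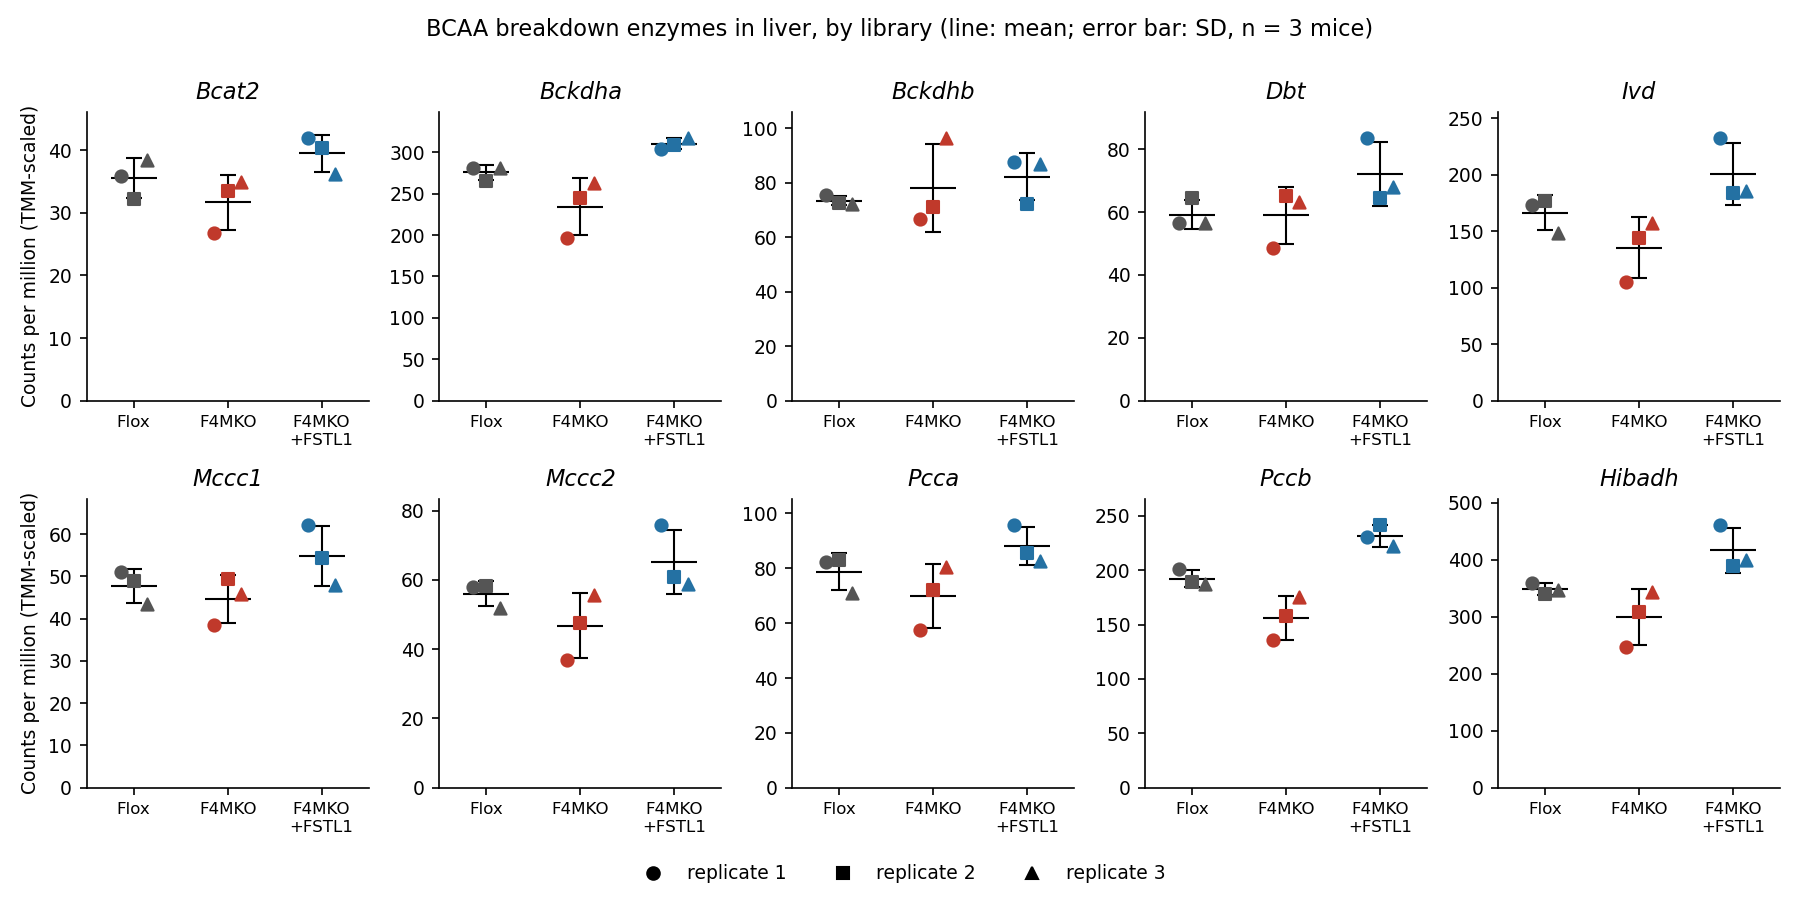
Expression of the 10 enzymes in each liver, in TMM-scaled CPM (vertical axes from 0), with 1 point per mouse, marker shape giving the replicate number, a line at the group mean and error bars of 1 SD (n = 3). F4MKO replicate 1 is the lowest of the 9 libraries for all 10 genes, and F4MKO+FSTL1 libraries sit above all F4MKO libraries for 7 of them (18.0% of all genes tested).

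With FSTL1 supplied from muscle, 5 of the 10 enzyme mRNAs rose relative to F4MKO at an adjusted p under 0.05 (edgeR quasi-likelihood test, Benjamini-Hochberg over 14379 genes): Bckdha of the dehydrogenase complex, Ivd and Mccc2 of the leucine path, Pccb of the propionyl end and Hibadh of the valine path. None of the 5 reached a fold change of 1.5, so 0 of 10 passed the combined threshold of adjusted p under 0.05 and more than 1.5-fold, which 14.4% of all genes tested passed. At adjusted p under 0.05 alone, 20.9% of all genes passed in either direction and 7.73% were higher. The fitted log2 fold change was above 0 for all 10 enzymes (51.4% of all genes), although Bckdhb was at -0.11 when library totals were used without TMM, and the median was 0.37 against 0.01 over all genes. The unadjusted p was under 0.05 with a higher level for 8 of 10 (15.8% of all genes). In bulk liver RNA, a change in the number of cells of a type and a change in RNA per cell cannot be told apart.

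Pccb, the beta (carboxyltransferase) subunit of propionyl-CoA carboxylase, showed the clearest separation. Its level was 201, 189 and 187 CPM in the Flox livers, 135, 158 and 175 CPM in the F4MKO livers, and 230.4, 242 and 222 CPM in the F4MKO+FSTL1 livers. The 3 groups did not overlap, with F4MKO lowest and F4MKO+FSTL1 highest. F4MKO+FSTL1 against F4MKO gave a fold of 1.48 (95% interval 1.26 to 1.75; log2 0.57, SE 0.11; edgeR adjusted p = 0.00501). Its partner Pcca, the biotin-carrying alpha subunit, had 82.4, 83.0 and 71.0 CPM in Flox, 57.3, 72.0 and 80.5 CPM in F4MKO and 95.8, 85.5 and 82.6 CPM in F4MKO+FSTL1 livers. The F4MKO+FSTL1 libraries lay above the F4MKO libraries but overlapped Flox, and the log2 fold change against F4MKO was 0.33 (SE 0.13, edgeR adjusted p = 0.0863).

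Hibadh, which oxidises hydroxyisobutyrate in valine breakdown, had 360.1, 341 and 346 CPM in Flox, 247, 309 and 344 CPM in F4MKO and 462, 389 and 400.4 CPM in F4MKO+FSTL1 livers. All 3 F4MKO+FSTL1 libraries were above the other 6, and F4MKO replicate 3 reached the Flox range. The fold against F4MKO was 1.39 (95% interval 1.14 to 1.70; log2 0.48, SE 0.13; edgeR adjusted p = 0.0255).

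In the leucine path, Ivd had 173, 177 and 149 CPM in Flox, 105, 144 and 157 CPM in F4MKO and 233, 184 and 186 CPM in F4MKO+FSTL1 livers. The F4MKO+FSTL1 group again lay above all other libraries, with replicate 1 well above its group. Against F4MKO the fold was 1.48 (95% interval 1.17 to 1.88; log2 0.57, SE 0.16; edgeR adjusted p = 0.0256). Mccc2, the carboxyltransferase subunit of methylcrotonyl-CoA carboxylase, had 57.9, 58.3 and 51.9 CPM in Flox, 37.0, 47.6 and 55.7 CPM in F4MKO and 75.9, 60.9 and 58.9 CPM in F4MKO+FSTL1 livers. Its fold against F4MKO was 1.40 (95% interval 1.12 to 1.74; log2 0.48, SE 0.15; edgeR adjusted p = 0.0387), and no F4MKO+FSTL1 library fell within the range of another group. Mccc1, the biotin-carrying subunit, had 51.0, 48.9 and 43.4 CPM in Flox, 38.4, 49.5 and 45.9 CPM in F4MKO and 62.2, 54.4 and 48.1 CPM in F4MKO+FSTL1 livers. All groups overlapped for Mccc1, and the log2 fold change against F4MKO was 0.30 (SE 0.12, edgeR adjusted p = 0.104).

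At the dehydrogenase complex the subunits did not share one pattern. Bckdha, the alpha subunit that carries the regulatory phosphorylation sites, had 281, 265 and 281 CPM in Flox, 196, 244 and 263 CPM in F4MKO and 304, 308 and 317 CPM in F4MKO+FSTL1 livers. The 3 groups did not overlap, and the fold of F4MKO+FSTL1 against F4MKO was 1.32 (95% interval 1.11 to 1.58; log2 0.40, SE 0.12; edgeR adjusted p = 0.0308). Bckdhb, the beta subunit, had 75.6, 72.6 and 72.4 CPM in Flox, 66.9, 71.1 and 96.6 CPM in F4MKO and 87.8, 72.3 and 86.8 CPM in F4MKO+FSTL1 livers. F4MKO replicate 3 held the highest Bckdhb level of all 9 libraries, all groups overlapped, and the log2 fold change against F4MKO was 0.07 (95% interval -0.22 to 0.37; edgeR adjusted p = 0.732). Dbt had 56.4, 64.4 and 56.6 CPM in Flox, 48.5, 65.2 and 63.1 CPM in F4MKO and 83.6, 64.4 and 68.1 CPM in F4MKO+FSTL1 livers. F4MKO+FSTL1 replicate 1 stood above the rest for Dbt, and the log2 fold change was 0.29 (SE 0.13, edgeR adjusted p = 0.146). Bcat2, which precedes the complex, had 35.9, 32.2 and 38.5 CPM in Flox, 26.7, 33.5 and 34.9 CPM in F4MKO and 42.0, 40.3 and 36.2 CPM in F4MKO+FSTL1 livers. Its F4MKO+FSTL1 libraries lay above the F4MKO libraries by a narrow gap, with a log2 fold change of 0.32 (SE 0.12, edgeR adjusted p = 0.0772). Groups did not overlap, with F4MKO+FSTL1 higher, for 7 of the 10 enzymes in this comparison, and for 18.0% of all genes.

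**Figure D2:**
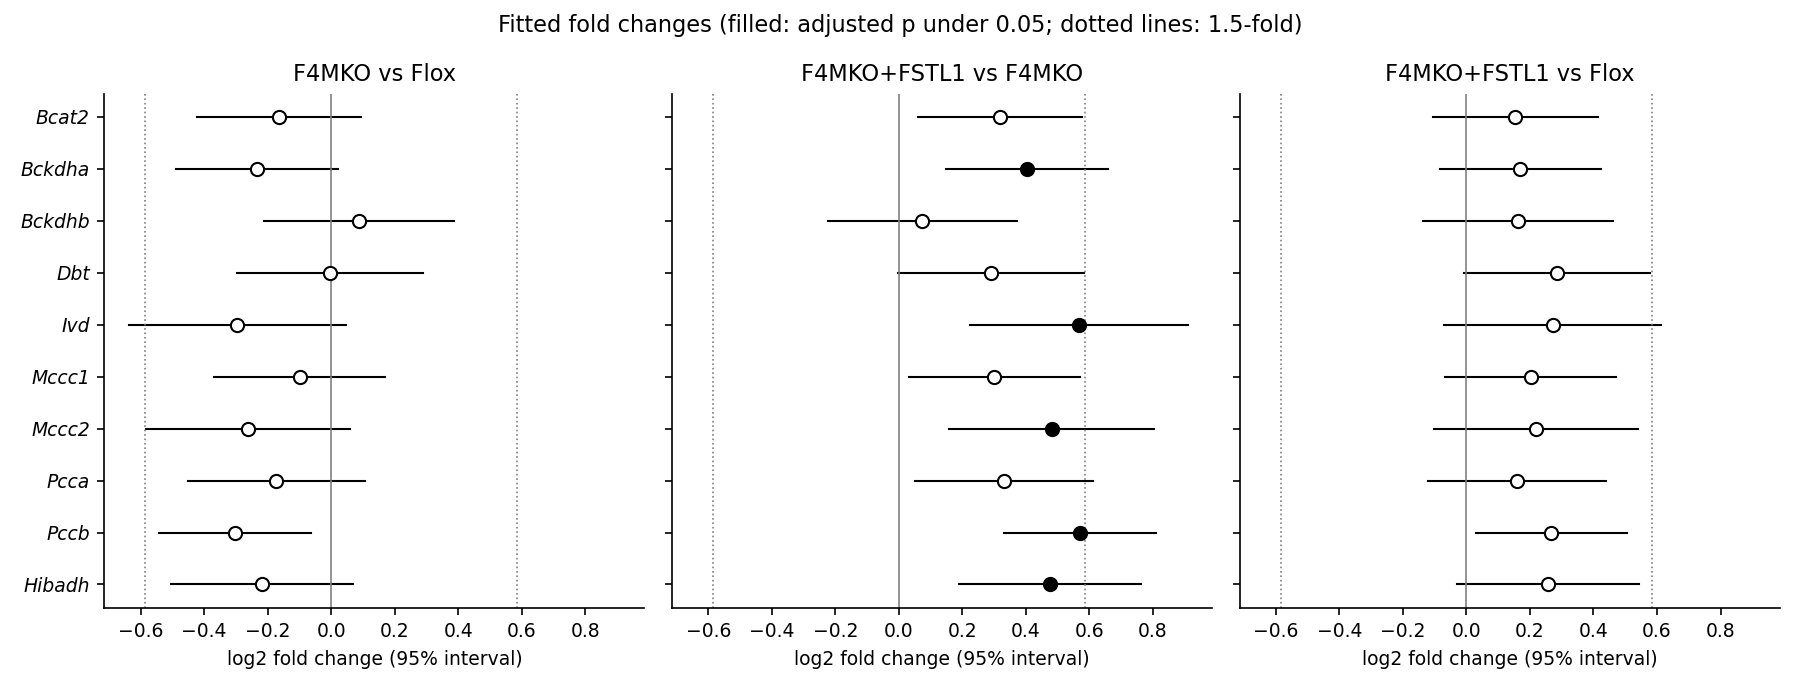
Fitted log2 fold change of each enzyme (points) with its 95% interval (bars) in the 3 comparisons, from edgeR on all 9 libraries. Filled points mark adjusted p under 0.05, reached by Bckdha, Ivd, Mccc2, Pccb and Hibadh in F4MKO+FSTL1 against F4MKO only, and dotted lines mark a fold of 1.5.

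Between F4MKO and Flox livers the differences were smaller and less certain. Against Flox, the level in F4MKO livers was lower for 9 of 10 enzymes and higher for Bckdhb (log2 0.09, where 49.4% of all genes were above 0), with Dbt and Mccc1 turning to higher without TMM. The median log2 fold change was -0.20 against -0.003 over all genes. By edgeR 0 of 10 had an adjusted p under 0.05 and 0 passed the combined threshold, against 0.278% and 0.271% of all genes. By DESeq2 also 0 had an adjusted p under 0.05 (3.07% of all genes with one). At an unadjusted p under 0.05, 1 of 10 was lower by edgeR, Pccb, against 7.51% of all genes. For Pccb the fold was 0.811 (95% interval 0.687 to 0.957; log2 -0.30, SE 0.11; edgeR adjusted p = 0.201). For Bckdha the log2 fold change was -0.23 (SE 0.12, edgeR adjusted p = 0.335), and for Ivd, whose groups overlapped, it was -0.29 (SE 0.16, adjusted p = 0.363). Mccc2, Pcca, Mccc1, Dbt, Hibadh and Bcat2 lay between -0.26 (Mccc2) and -0.005 (Dbt) on the log2 scale, with edgeR adjusted p of 0.391 to 0.992.

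F4MKO+FSTL1 livers also stood above Flox livers in the fitted level of all 10 enzymes, by log2 fold changes from 0.15 (Bcat2) to 0.28 (Dbt), where 49.9% of all genes were above 0 and the medians were 0.21 and -0.0004. This comparison shares its samples with the others and is no independent evidence of direction. The edgeR adjusted p was 0.317 to 0.689, so that 0 of 10 enzymes, and 0.00695% of all genes, were under 0.05. DESeq2 gave 0 as well (2.26% of all genes with an adjusted p). By unadjusted p 1 of 10 was higher (Pccb, fold 1.20, 95% interval 1.02 to 1.42), against 4.26% of all genes. The groups did not overlap for Bckdha, Ivd, Mccc2, Pccb and Hibadh, 5 of 10, against 7.44% of all genes.

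The count in F4MKO+FSTL1 against F4MKO depended on single livers and on the scaling. In TMM-scaled CPM, F4MKO replicate 1 was the lowest of the 9 libraries for every one of the 10 enzymes, and F4MKO+FSTL1 replicate 1 was the highest for 7 of them. By share of library totals without TMM, F4MKO replicate 1 was not the lowest for Bckdhb, Dbt and Mccc1. Leaving out F4MKO replicate 1, the library with the high scaling factor and, after that scaling, the low hepatocyte markers, left 1 enzyme (Pccb) at edgeR adjusted p under 0.05, against 11.1% of all genes in that fit, and a median log2 fold change of 0.25. Leaving out F4MKO+FSTL1 replicate 1, the library with the low Irf4 count, likewise left 1, Pccb (16.4% of all genes). The number was 2 without F4MKO replicate 2 (15.9% of all genes) and 3 without F4MKO+FSTL1 replicate 2 (10.6%). It was 6 without F4MKO replicate 3 (20.9% of all genes), when 4 also passed 1.5-fold (15.2%). It was 1 (Pccb) with library totals without TMM (22.6% of all genes) and 2 (Ivd and Pccb) when only the 6 libraries compared were fitted (18.4%). Pccb had an adjusted p under 0.05 in all 15 alternative fits, with a log2 fold change of 0.38 to 0.66. Ivd did so in 7 of the 9 fits that leave out a library, Hibadh in 6, Bckdha and Mccc2 in 4 each, and Pcca in 1.

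**Figure D3:**
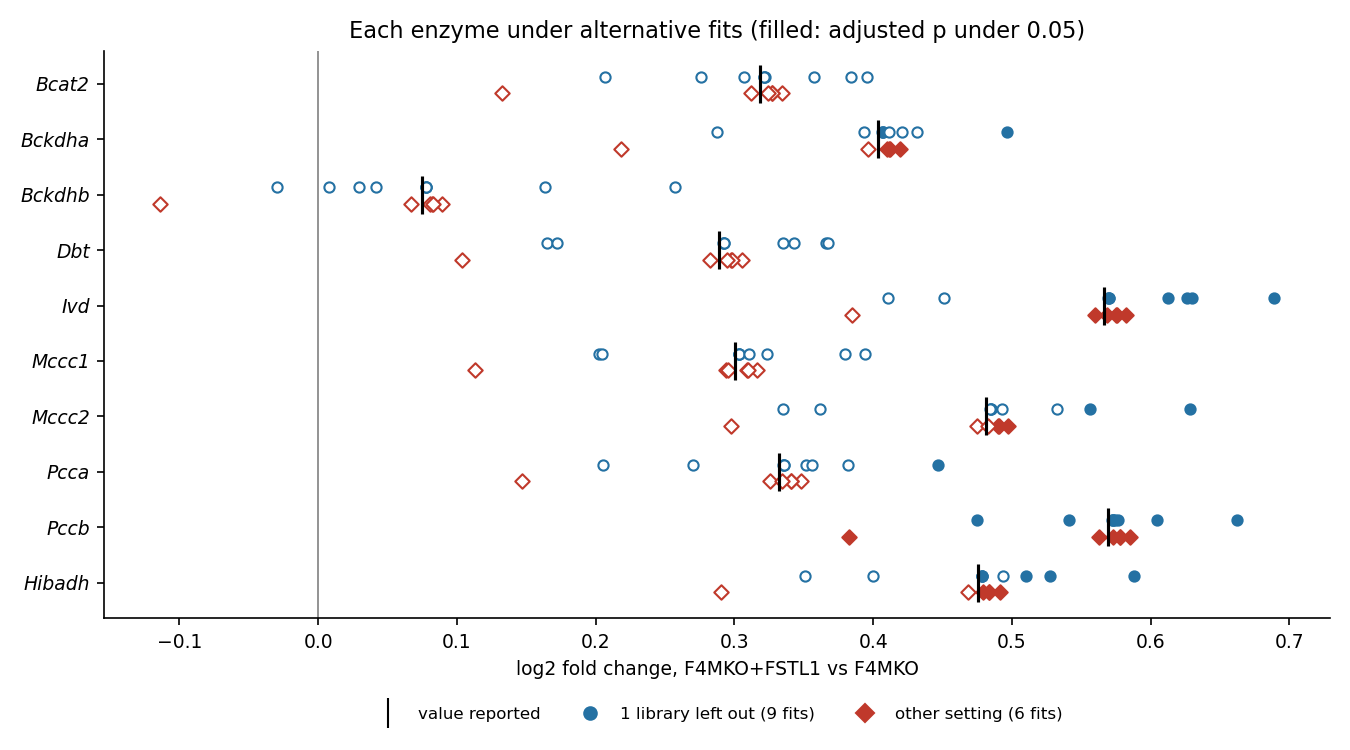
Log2 fold change of each enzyme in F4MKO+FSTL1 against F4MKO as reported (black bar), with each of the 9 libraries left out (circles) and under 6 other settings (diamonds). Filled symbols have an adjusted p under 0.05, and Pccb is filled throughout, while the leftmost diamond of each row is the fit to library totals without TMM.

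Subunits that work as partners can be compared within a library, where scaling cancels. The log2 ratio of Bckdha to Bckdhb was 1.89, 1.87 and 1.96 in Flox, 1.55, 1.78 and 1.45 in F4MKO and 1.79, 2.09 and 1.87 in F4MKO+FSTL1 libraries. F4MKO lay below both other groups without overlap, by 0.31 against Flox and 0.33 against F4MKO+FSTL1 (exact two-sided permutation p = 0.1 for each, the smallest that 3 against 3 allows; adjusted p = 0.4 over 12 tests). For Pcca to Pccb the ratio was -1.29, -1.18 and -1.40 in Flox, -1.24, -1.13 and -1.12 in F4MKO and -1.27, -1.50 and -1.43 in F4MKO+FSTL1 libraries. F4MKO+FSTL1 lay below F4MKO by 0.23 without overlap (exact permutation p = 0.1, adjusted p = 0.4) and overlapped Flox. Mccc1 to Mccc2 overlapped in every comparison, with means of -0.23 ± 0.04 in Flox, -0.06 ± 0.19 in F4MKO and -0.25 ± 0.07 in F4MKO+FSTL1 (SD, n = 3).

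**Figure D4:**
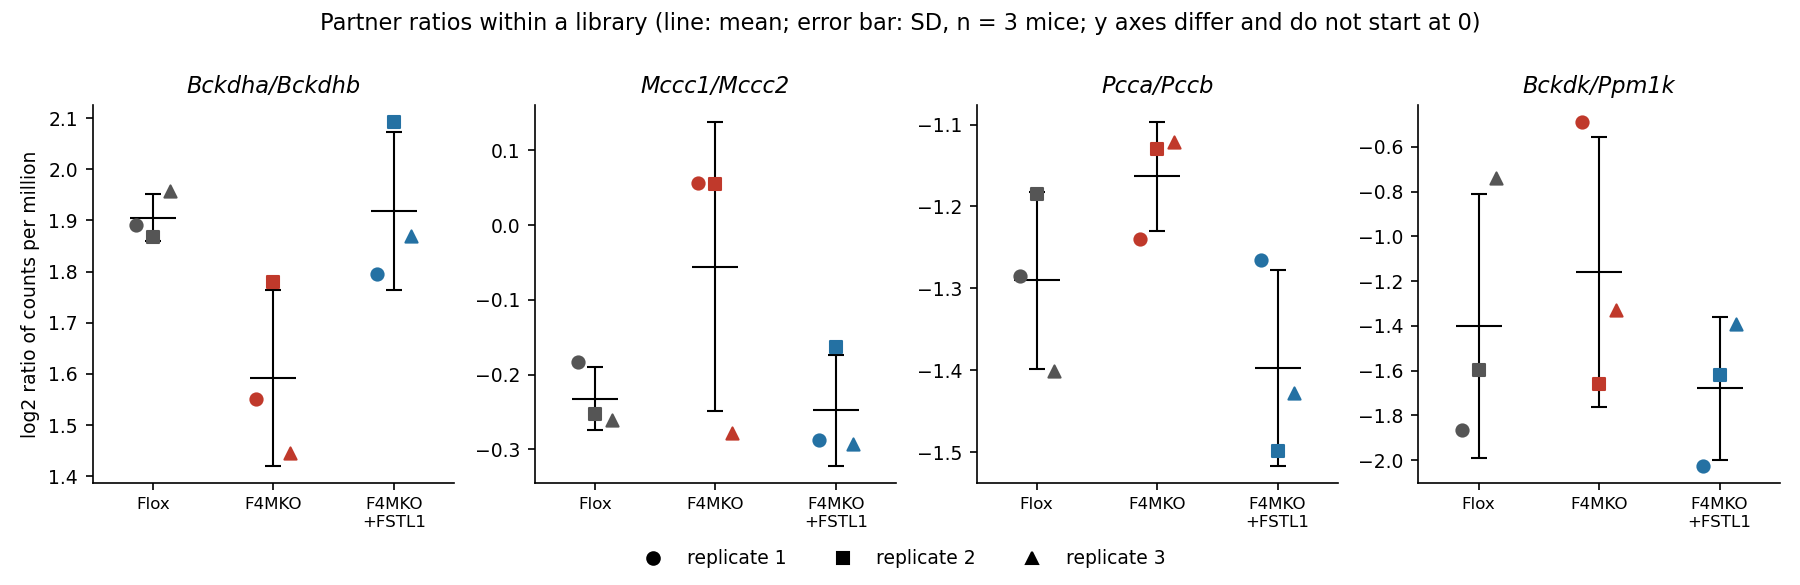
Log2 ratio of CPM within each library for Bckdha to Bckdhb, Mccc1 to Mccc2, Pcca to Pccb and Bckdk to Ppm1k, 1 point per mouse, with the group mean (line) and SD (bars, n = 3); the vertical axes differ and do not start at 0. F4MKO libraries lie between 1.45 and 1.78 for Bckdha to Bckdhb, below the 6 other libraries.

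The switch of the dehydrogenase complex did not pass the test in any comparison. Bckdk, the kinase that inactivates the complex by phosphorylating Bckdha, had 19.6, 21.1 and 24.4 CPM in Flox, 21.0, 16.8 and 19.2 CPM in F4MKO and 17.2, 20.8 and 26.1 CPM in F4MKO+FSTL1 livers, and all groups overlapped. Ppm1k, the phosphatase that reactivates it, had 71.3, 63.9 and 40.7 CPM in Flox, 29.5, 53.1 and 48.1 CPM in F4MKO and 70.2, 63.9 and 68.6 CPM in F4MKO+FSTL1 livers. The F4MKO+FSTL1 libraries lay above the F4MKO libraries for Ppm1k, at a log2 fold change of 0.63 (SE 0.22, edgeR adjusted p = 0.0646). The log2 ratio of Bckdk to Ppm1k overlapped between all groups, at -1.40 ± 0.59 in Flox, -1.16 ± 0.60 in F4MKO and -1.68 ± 0.32 in F4MKO+FSTL1 (SD, n = 3).

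Of 20 other enzymes of the same pathways that were tested, 5 rose and 1 fell in F4MKO+FSTL1 against F4MKO at edgeR adjusted p under 0.05. Of all genes 7.73% were higher by that rule and 20.9% passed in either direction. The median log2 fold change of the 20 was 0.32. Hsd17b10, the dehydrogenase of the isoleucine path, had 180.3, 168 and 162 CPM in Flox, 96.6, 121 and 152 CPM in F4MKO and 261, 201 and 244 CPM in F4MKO+FSTL1 livers. It was the 1 gene of this list to rise past 1.5-fold (fold 1.91, log2 0.93, SE 0.16, edgeR adjusted p = 0.0031), and its 3 groups did not overlap. Oxct1, which activates ketone bodies and is low in hepatocytes, had 5.66, 5.41 and 6.88 CPM in Flox, 10.5, 8.38 and 8.10 CPM in F4MKO and 4.53, 2.93 and 3.76 CPM in F4MKO+FSTL1 livers, a fall to 0.417-fold (log2 -1.26, SE 0.19, edgeR adjusted p = 0.00182). Acadsb of the isoleucine path (log2 0.49), Hibch of the valine path (0.36), Auh of the leucine path (0.48) and Acat1, which closes isoleucine breakdown (0.49), rose by less than 1.5-fold. Against Flox, 0 of the 20 had an adjusted p under 0.05 in either group by edgeR. At an unadjusted p under 0.05 in either direction there were 5 in F4MKO and 4 in F4MKO+FSTL1. These counts include Oxct1, which was higher in F4MKO (log2 0.59) and lower in F4MKO+FSTL1 (log2 -0.67). The others were lower in F4MKO and higher in F4MKO+FSTL1. By the unadjusted rule 7.51% of all genes were lower in F4MKO and 4.26% higher in F4MKO+FSTL1.

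Carriers of branched-chain amino acids moved in both directions. Of 9 regulators and carriers tested, Slc43a1, a facilitative transporter of large neutral amino acids, rose from 1.59, 2.22 and 2.75 CPM in F4MKO to 10.2, 3.99 and 6.01 CPM in F4MKO+FSTL1 livers (log2 1.63, SE 0.36, edgeR adjusted p = 0.00928). Flox livers held 2.18, 2.29 and 3.99 CPM, and F4MKO+FSTL1 replicate 1 was the highest of all. Its relative Slc43a2 fell (log2 -0.74, SE 0.13, adjusted p = 0.00325 by edgeR), as did the exchanger Slc7a8 (log2 -0.72, SE 0.17, edgeR adjusted p = 0.0120). Klf15, a transcription factor known to promote amino acid breakdown, had a log2 fold change of 0.47 (SE 0.16, edgeR adjusted p = 0.0571). The median of the list was -0.07.

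In F4MKO+FSTL1 against F4MKO 7.73% of all genes were higher at edgeR adjusted p under 0.05, and 20.9% passed in either direction. Genes that supply the cofactors of these enzymes (biotin, cobalamin and lipoate) gave 4 of 13 higher and 0 lower, none past 1.5-fold, with a median log2 fold change of 0.24. They were the vitamin transporter Slc5a6 (0.55), the cobalamin genes Mmaa (0.49) and Abcd4 (0.55), and Gcsh (0.36), a lipoyl carrier protein. Among 10 subunits of the sister dehydrogenases and biotin carboxylases 0 rose and 1 fell: Acaca, the carboxylase that starts fatty acid synthesis (log2 -0.49, SE 0.12, edgeR adjusted p = 0.0177). Pdhx of the pyruvate dehydrogenase complex came next at 0.48 (edgeR adjusted p = 0.119), and the median of that list was 0.10. Among 26 enzymes that break down other amino acids 6 rose and 0 fell, with a median of 0.26. Past 1.5-fold, where 14.4% of all genes passed in either direction, were 5 of them: Oat of ornithine (0.78), Hpd of tyrosine (0.67), Ftcd of histidine (0.65), Haao of tryptophan (0.60) and Gcdh of lysine and tryptophan (0.60 on the log2 scale). Oat rested in part on F4MKO+FSTL1 replicate 1, at 796 CPM against 393 and 417 CPM. In the citric acid cycle 0 of 16 genes passed by edgeR, and 4 had an unadjusted p under 0.05, by which 15.8% of all genes were higher. The median was 0.18, with Sdhb (0.43, edgeR adjusted p = 0.0550) and Idh3b (0.30, edgeR adjusted p = 0.0608) nearest. Relative to Flox, 0 genes of the carrier, cofactor, sister, other amino acid and citric acid cycle lists had an edgeR adjusted p under 0.05 in F4MKO or F4MKO+FSTL1. At an unadjusted p under 0.05 in either direction these lists held 3, 1, 0, 4 and 1 genes in F4MKO, and 1, 1, 1, 2 and 0 genes in F4MKO+FSTL1. In F4MKO the carrier genes were all higher (Slc3a2 0.36, Slc43a2 0.47, Slc7a8 0.40), and the genes of the other lists were lower. In F4MKO+FSTL1 the sister gene, Acaca, was lower (log2 -0.44), and the genes of the other lists were higher. By unadjusted p under 0.05, 7.51% of all genes were lower in F4MKO and 4.26% higher in F4MKO+FSTL1, and the shares in the opposite directions are not given here.

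**Figure D5:**
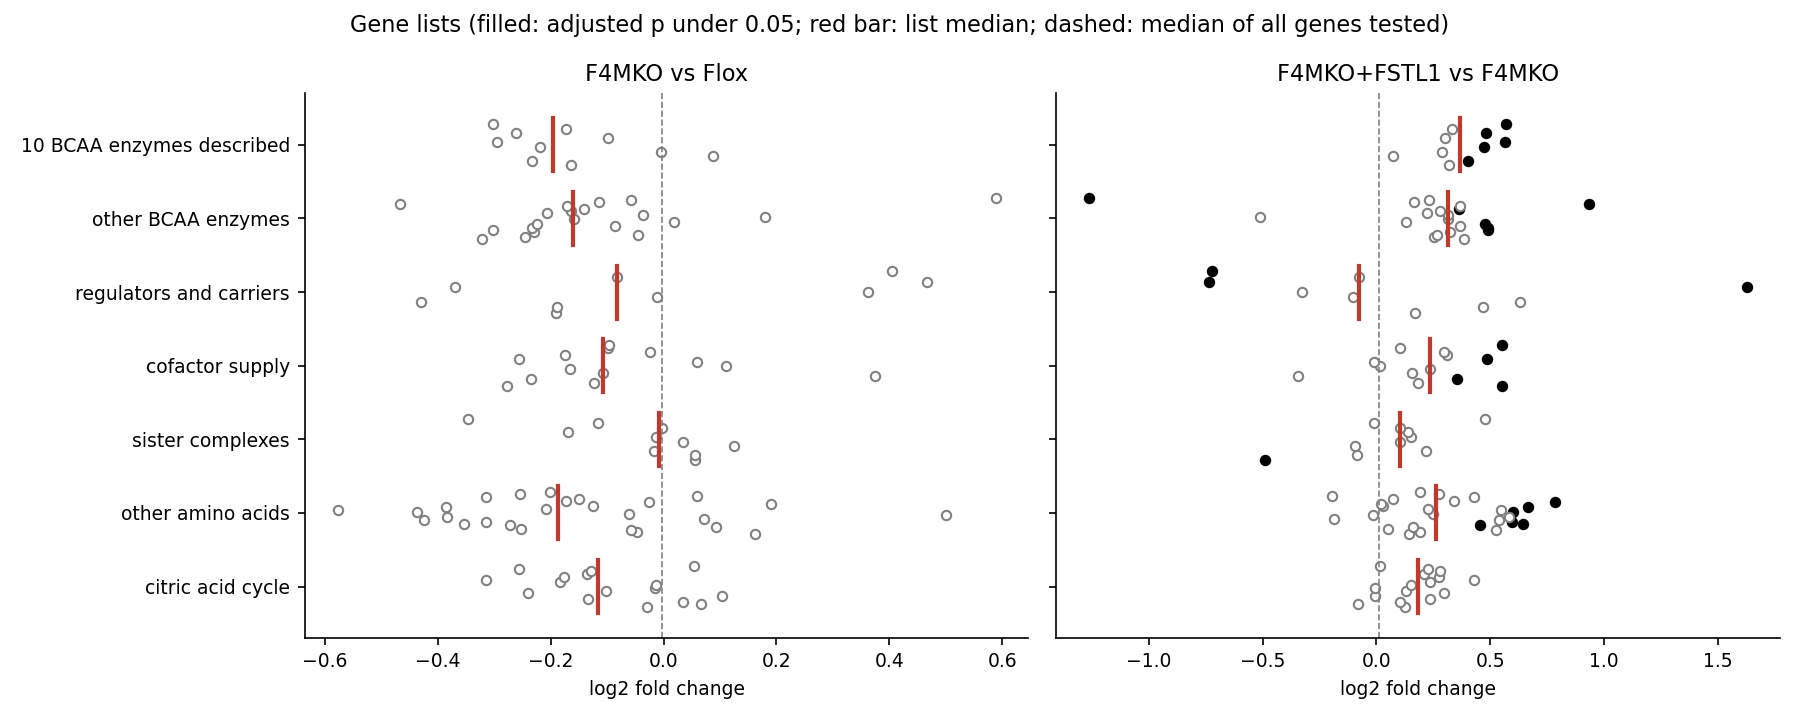
Log2 fold change of each gene tested (points) in the 10 enzymes and 6 related lists, for F4MKO against Flox (left) and F4MKO+FSTL1 against F4MKO (right; the horizontal scales differ). Filled points have an adjusted p under 0.05, red bars give list medians (0.37 for the 10 enzymes on the right) and the dashed line is the median of all genes.

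Stellate cell, cholangiocyte, macrophage and proliferation markers fell in the comparison in which the enzymes rose, while endothelial markers did not. In F4MKO+FSTL1 against F4MKO 14.4% of all genes passed the combined threshold in either direction, and 6 of 10 stellate cell markers fell past it. Their summed levels were 447 to 519 CPM in Flox, 600.1 to 759 CPM in F4MKO and 295 to 410 CPM in F4MKO+FSTL1 livers. Cholangiocyte markers fell in 4 of 5 tested, from 160.4 to 431 CPM in F4MKO to 36.1 to 54.0 CPM in F4MKO+FSTL1 livers, with 50.7 to 89.0 CPM in Flox. Macrophage markers fell in 6 of 10 (710.5 to 809 CPM in F4MKO, 374 to 600.3 CPM in F4MKO+FSTL1, 631 to 998 CPM in Flox), and all 5 proliferation markers fell (10.9 to 19.0 CPM in Flox, 22.8 to 29.6 CPM in F4MKO, 3.31 to 6.63 CPM in F4MKO+FSTL1). Col1a1, a collagen gene of stellate cells, had a log2 fold change of -2.25 (SE 0.31, edgeR adjusted p = 0.00152) against F4MKO, and of 1.41 (SE 0.30, edgeR adjusted p = 0.0610) in F4MKO against Flox. The summed stellate, cholangiocyte and proliferation markers were thus highest in the libraries labelled F4MKO and lowest in those labelled F4MKO+FSTL1, except that the cholangiocyte sums of F4MKO+FSTL1 and Flox overlapped. By quantitative PCR of liver the paper reports the opposite direction: Col1a1 and Col1a2 were lower in F4MKO mice than in controls. It also reports that fibrosis genes returned towards control levels with FSTL1. The reason for this difference was not tested. Since no liver count checks the labels, every direction given here rests on the labels as deposited. Hepatocyte markers summed to 115761 to 121738 CPM in Flox, 85980 to 120110 CPM in F4MKO and 107526 to 126750 CPM in F4MKO+FSTL1 livers, with 2 of 10 higher past the threshold. Endothelial markers summed to 301 to 383 CPM in Flox, 228 to 302 CPM in F4MKO and 274 to 339 CPM in F4MKO+FSTL1 livers. In F4MKO+FSTL1 against F4MKO 8 of 10 had a fitted log2 fold change above 0 (51.4% of all genes). At edgeR adjusted p under 0.05, 1 was higher (Clec4g, against 7.73% of all genes) and 0 were lower. Lymphocyte markers summed to 6.28 to 10.3 CPM in F4MKO and 3.50 to 9.55 CPM in F4MKO+FSTL1 livers. Of these 0 of 7 had an edgeR adjusted p under 0.05 (20.9% of all genes in either direction), and 1, lower, had an unadjusted p under 0.05. For adipocytes 4 of 5 markers were too low to test. The part of these markers in the enzyme differences was not tested.

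Among the enzymes, Hibadh followed the mean profile of the 10 most closely over the 9 libraries (root mean square difference of standardised log2 CPM 0.14), followed by Mccc2 (0.17) and Ivd (0.18), and Bckdhb least closely (0.82). Of the genes tested outside the 10, the mean profile was most like Gcdh (0.19), then Coq9, Ift52, Decr2 and Upb1 (0.22 to 0.23). Ivd and Mccc2, which act in succession in leucine breakdown, were each other's nearest gene (0.14), and Mccc2 was also nearest to Pcca (0.18). The nearest gene was Cisd1 for Bckdha (0.091), Grsf1 for Pccb (0.092) and Gcdh for Hibadh (0.13). For Bcat2, Bckdhb, Dbt and Mccc1 it was Gnl1, Gnat1, Ctcfl and Zcchc17, at 0.24 to 0.29. These likenesses describe 9 libraries that share group, depth and scaling.

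The start sites of 3 enzymes are shown for the range of these profiles: Pccb, whose difference held in every fit, Hibadh, nearest to the mean profile, and Bckdhb, farthest from it. Each run covers 250 bases before to 50 bases after a RefSeq start site (GRCm38.p6), written 5′ to 3′ on the strand of the gene, with CpG dinucleotides in capitals.
Pccb (chr9:101034835-101035134, minus strand): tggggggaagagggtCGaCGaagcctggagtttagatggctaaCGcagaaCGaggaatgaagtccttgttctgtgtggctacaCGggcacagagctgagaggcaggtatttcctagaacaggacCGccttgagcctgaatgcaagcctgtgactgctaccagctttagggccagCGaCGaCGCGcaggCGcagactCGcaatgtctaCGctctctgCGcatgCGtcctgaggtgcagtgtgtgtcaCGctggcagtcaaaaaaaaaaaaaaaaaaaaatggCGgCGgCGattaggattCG
Hibadh (chr6:52640251-52640550, minus strand): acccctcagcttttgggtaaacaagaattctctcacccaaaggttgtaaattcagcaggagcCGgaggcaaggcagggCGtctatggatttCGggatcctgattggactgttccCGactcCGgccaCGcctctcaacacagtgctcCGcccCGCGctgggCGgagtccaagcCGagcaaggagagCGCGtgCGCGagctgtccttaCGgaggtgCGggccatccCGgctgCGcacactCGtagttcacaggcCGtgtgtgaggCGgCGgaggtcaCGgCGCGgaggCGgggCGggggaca
Bckdhb (chr9:83924887-83925186, plus strand): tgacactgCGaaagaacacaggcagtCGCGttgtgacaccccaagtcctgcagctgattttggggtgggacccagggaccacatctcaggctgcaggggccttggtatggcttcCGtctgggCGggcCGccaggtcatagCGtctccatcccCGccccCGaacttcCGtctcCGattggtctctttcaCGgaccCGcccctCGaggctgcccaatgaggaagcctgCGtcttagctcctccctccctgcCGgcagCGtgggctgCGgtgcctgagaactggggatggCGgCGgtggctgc

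The Pccb window held 20 CpGs at 0.933 of the number its base composition predicts, and Hibadh held 28 at 0.918. Bckdhb held 20 at 0.632 in the window shown, and 2 in a window at its alternative start. Windows were given for 9 of the 10 enzymes, 12 in all, and not for Dbt. Their median GC content was 54.2% and their median CpG ratio 0.604, against 59.7% and 0.715 in 13800 windows of other genes tested. The letters CCAAT, read on both strands, were in 8 of the 12 windows (66.7%) and in 37.2% of the other windows. GGGCGG, which itself contains a CpG, was in 4 (33.3%) against 57.5%, TATAAA in 0 against 8.15% and AAGGTCA in 0 against 3.70%. These counts describe the letters in the windows alone.

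Mccc1 and Pcca carry the biotin of their complexes on a lysine in a stretch also found in pyruvate carboxylase (Pcx). Both had an adjusted p above 0.05 in F4MKO+FSTL1 against F4MKO and their partners Mccc2 and Pccb had one below it, but a difference between partners was not shown: the ratios within libraries gave an adjusted p of 0.48 and 0.4 (exact permutation test, whose unadjusted p cannot go below 0.1). The coding bases around that lysine are shown to set the 2 biotin subunits beside each other, with the lysine codon in capitals and 42 bases of the first-numbered GENCODE vM21 transcript in each line.
Mccc1 (transcript bases 2129 to 2170): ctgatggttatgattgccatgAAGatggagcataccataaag
Pcca (transcript bases 2075 to 2116): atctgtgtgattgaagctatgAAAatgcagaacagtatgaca
Pcx (transcript bases 3556 to 3597): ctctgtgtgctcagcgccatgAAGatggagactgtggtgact
Mccc1 and Pcca shared 22 of 42 bases, Mccc1 and Pcx 24, and Pcca and Pcx 26, so the transcripts are distinct at this site.

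The enzymes are spread over 7 chromosomes (mm10): Bckdha at chr7:25629852-25658782 and Bcat2 at chr7:45568967-45589710, Bckdhb at chr9:83925111-84124240 and Pccb at chr9:100982032-101034940, Dbt at chr3:116513070-116549981 and Mccc1 at chr3:35956292-36000694, Ivd at chr2:118861959-118882909, Hibadh at chr6:52546230-52640300, Mccc2 at chr13:99948532-100015639 and Pcca at chr14:122484365-122889944. Exons of Bcat2, Bckdha, Mccc1 and Pcca overlap a gene on the opposite strand. The longest overlaps with counted genes were 622 bases of Bcat2 with 0610005C13Rik (up to 4513 counts in a library), 1171 bases of Bckdha with B3gnt8 (up to 48) and 241 bases of Pcca with Ggact (up to 2623). The strand setting of the counting was not given in the sources used here, and how reads in these stretches were assigned was not tested. Counts per library were 693 to 898 for Bcat2, the lowest of the 10, and 6981 to 9879 for Hibadh, the highest.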

How the data were processed

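Liver RNA of 9 mice, 3 per group, was sequenced on the BGIseq500 platform as 150 bp paired-end reads. Per the labels and methods, the authors trimmed reads with Trim Galore 0.6.7, mapped them to mm10 with HISAT2 2.2.1 and counted them per gene with featureCounts 2.0.1. The annotation, strand setting and treatment of multi-mapped reads were not given in the sources used here. The deposited values were raw counts of 24008 genes. The mapping of columns to groups followed the labels.

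Counts were tested with edgeR 4.0.16 (limma 3.58.1, R 4.3.3): TMM scaling, filterByExpr with a minimum count of 10, glmQLFit over all 9 libraries with 1 mean per group, glmQLFTest per comparison, and Benjamini-Hochberg adjustment over 14379 genes. Fold changes above 1.5 with adjusted p under 0.05 passed the combined threshold. CPM were taken over the counts of tested genes after TMM, and summed marker levels over all counts with the same factors. Totals per library were 20656976 to 24322984, and the biological coefficient of variation between mice was 0.150. Partner ratios used a prior count of 0.5 and an exact permutation test (scipy 1.17.1). Alternatives were DESeq2 1.42.0, its size factors in edgeR, no filter, only the 6 libraries compared, a replicate block, each library left out and, added after seeing the data, library totals without TMM. The main fit was also run on counts simulated from the gene means and fitted spread of these data. That check cannot show dependence on the scaling or on single libraries. p-values measure the spread between these mice, for which the labels give no litter or batch.

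The enzymes and all gene lists were chosen with earlier results of these data known. Every enzyme was named, and of each further list the genes past the combined threshold (at most 5 per comparison) or, where none passed, those with the smallest adjusted p. Additional genes named at adjusted p under 0.05 (Acadsb, Hibch, Auh, Acat1, Slc5a6, Abcd4), and Klf15, were chosen after their values were seen. Sequences came from RefSeq (GRCm38.p6) and GENCODE vM21. A TPM conversion and the authors' own comparisons were not used here.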

Additional observations from a re-analysis of the deposited data

How the results depend on the processing

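In F4MKO+FSTL1 against F4MKO, the number of enzymes past the combined threshold went from 0 to 1 with DESeq2 (Pccb, adjusted p = 1.33e-05; 13.2% of all genes with an adjusted p passed), and from 0 to 4 when single libraries were left out. The number with an adjusted p under 0.05 went from 5 (20.9% of all genes) to 2 when only the 6 libraries compared were fitted (18.4%), to 1 with library totals without TMM (22.6%), and from 1 to 6 over the fits that left out a library (10.6% to 20.9% of all genes). Without TMM the median log2 fold change of the 10 enzymes was 0.18 while that of all genes was -0.18, a difference of 0.37. In F4MKO against Flox these were -0.09 and 0.11, a difference of -0.20. The cause of these shifts was not tested. Over the fits that left out a library, the median lay between 0.25 and 0.47 in F4MKO+FSTL1 against F4MKO, between -0.31 and -0.07 in F4MKO against Flox, and between 0.13 and 0.29 in F4MKO+FSTL1 against Flox. In the last 2 comparisons 0 enzymes had an adjusted p under 0.05 under any alternative.

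Dbt in F4MKO against Flox changed sign from -0.005 to 0.0042 with only the 6 libraries, 0.06 without Flox replicate 2, 0.12 without F4MKO replicate 1 and 0.10 without TMM, and its lowest value was -0.087. Bckdhb changed sign to -0.094 in F4MKO against Flox without F4MKO replicate 3 (highest 0.19), and in F4MKO+FSTL1 against F4MKO to -0.030 without F4MKO replicate 1 (highest 0.26) and -0.11 without TMM. Mccc1 in F4MKO against Flox was 0.010 without TMM.

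Same-numbered libraries correlated at -0.0985 to 0.304 in their deviations from group means, and those numbered 3 at 0.169 to 0.304. The libraries numbered 3 also lay at 16.8 to 24.2 on the second principal component of log2 CPM, against at most 2.40 for all others. Whether they share a batch or another factor was not tested, and the labels name none. The main fit did not use the numbers, and a block on them was fitted as an alternative. With the replicate block 4 enzymes, and 24.1% of all genes, had an adjusted p under 0.05 in F4MKO+FSTL1 against F4MKO, the log2 fold change of Mccc2 being 0.48 at adjusted p = 0.0516 (edgeR), and the median was 0.37. With the block 0 enzymes passed in the other comparisons. Of 669 recomputed values 625 stayed the same, which for a fold change meant the same direction and side of the threshold. For a count, median or partner ratio it meant a value within a set tolerance. Of the fold changes 23 were no longer past the threshold, 1 was newly past it and 8 changed sign. Beyond their tolerance moved 12 counts, medians or ratios. With 3 mice a group the precision is limited: in F4MKO+FSTL1 against F4MKO the upper end of the 95% interval exceeded 1.5-fold for 6 of the 10 enzymes, and its values ranged from 1.29 (Bckdhb) to 1.88 (Ivd).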
